A study of Sycon ciliatum with 26 samples.

Results

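Gene expression at days 10 to 14 after dissociation was set against days 3 to 4 in regenerating structures of the calcareous sponge Sycon ciliatum, which form when the cells of a dissociated sponge come together again. The libraries were chosen by their labelled day: 4 libraries of days 10 to 14 and 6 libraries of days 3 to 4, together 10 of the 26 libraries of the series. The 6 libraries of days 6 to 8 lie between them and were used to ask how much of each change was present by then. All 16 libraries carry the same source label, regenerating structures, and no strain, treatment or parent animal is given for any of them. The p-values therefore measure the spread between libraries within windows, estimated over the 25 regenerating libraries of the series. This spread may be partly technical. Each window pools several days, and the design text of the series ends the latest of these windows on day 12 where the sample labels give day 14.

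Calcareous sponges feed through chambers of choanocytes, flagellated collar cells that drive water through the body. Flat pinacocytes cover the surfaces, and sclerocytes secrete the calcite spicules of the skeleton. Dissociated sponge cells can adhere again, sort and rebuild this body plan, which makes the process a model of how tissues are remade from loose cells.

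Gene IDs in the files carry no names, positions or lengths, and 0 of 35307 matched the 26717 RefSeq genes of assembly ocSycCili1.1. Genes are therefore described by ID, level and timing, no role is given to any of them, and the labelled tissue could not be checked against markers of its cells. Levels are CPM, counts scaled to a common library total, on totals scaled by the trimmed mean of M-values (TMM). They are not divided by length, so levels of different genes may differ through length. Classes by level, limits in CPM and choices by CPM difference below carry this limit. In RNA from whole structures, fewer cells of a type and less RNA per cell cannot be told apart.

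Total counts ranged from 7551436 to 12698811 over the libraries of days 3 to 4. The ranges were 8328070 to 11306378 for days 6 to 8, and 11469047 to 12001364 for days 10 to 14. In these libraries 3 counts correspond to 0.225 to 0.451 CPM. The shallowest library of days 3 to 4, replicate 3, also had the fewest detected IDs, 25601 where the other libraries had 26957 to 27284.

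Over the span from days 3 to 4 to days 10 to 14, 1163 genes rose and 1593 fell (edgeR quasi-likelihood test, Benjamini-Hochberg adjusted p under 0.05). These were 4.85% and 6.64% of the 23995 genes tested, 11.5% together. The libraries of both windows did not overlap for 875 genes that were higher at days 10 to 14 (3.65% of those tested) and 1188 that were lower (4.95%). Of the genes called, 665 of the 1163 rises (57.2%) and 1004 of the 1593 falls (63.0%) were free of overlap. Falls outnumbered rises in each of the scalings and models tried, with 37.9% to 46.9% of calls upward, fits that left out a library included. The number of calls rested partly on single libraries and on the shared model. It was 1766 without replicate 3 of days 10 to 14, with 743 higher and 1023 lower, and 1572 when only the 10 libraries compared were fitted.

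Rises and falls differed in their sizes. The median rise was 1.43 log2 units, a 2.69-fold change, with quartiles at 0.90 and 2.27. The median fall was 2.35 log2 units, 5.10-fold, with quartiles at 0.93 and 4.21. Over all genes tested the median size, regardless of sign or test, was 0.39.

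Of the genes called, 349 rises and 435 falls were under 1 log2 unit. The remaining 814 rises (3.39% of all genes tested) and 1158 falls (4.83%) changed by at least 1. Large changes were mostly falls, as 447 falls (28.1%) but 84 rises (7.22%) reached 4 log2 units, and 219 falls and 44 rises reached 5. The number of rises declined steadily with size above 0.5 log2 units up to 4.5. The number of falls dropped from 396 genes at 0.5 to 1 log2 units to 92 at 2 to 2.5, then climbed again to 119 at 4 to 4.5. Sizes beyond the reach of the counts are uncertain, because every library of days 10 to 14 had 3 counts or fewer for 249 of the falls, and every library of days 3 to 4 for 41 of the rises. With these genes held at the lower bound that 3 counts per library allow, the medians over all genes called were 1.91 for falls and 1.38 for rises.

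**Figure D1:**
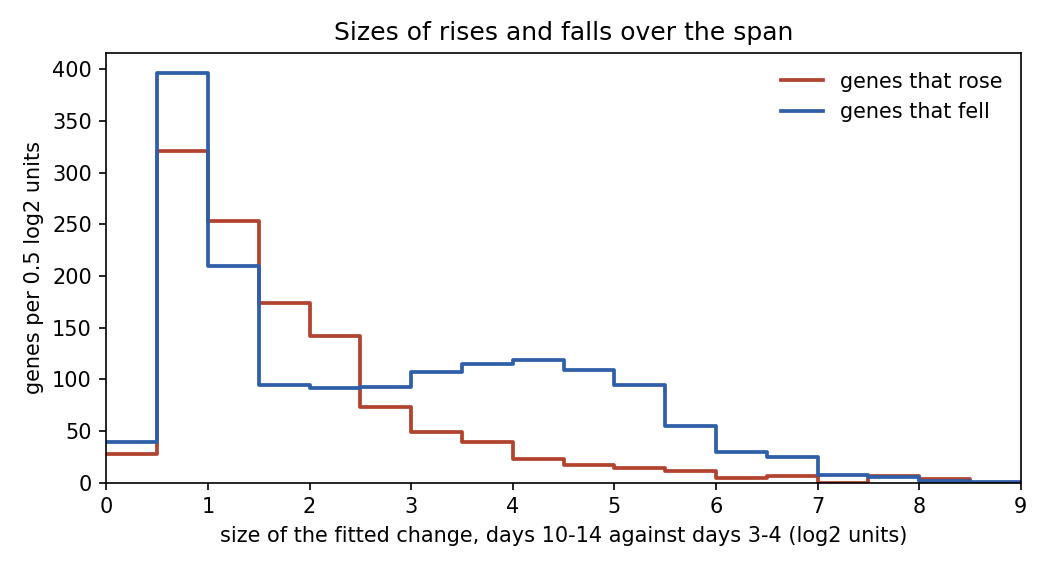
Number of genes called over the span (vertical axis) by the absolute size of the fitted log2 change, days 10 to 14 against days 3 to 4 (horizontal axis, 0.5 log2 units per step), for 1163 genes that rose and 1593 that fell. Falls show a broad second hump near 4 to 4.5 log2 units (119 genes) that rises lack (23 genes).

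The falls of 4 or more log2 units had a median of 6.43 CPM at days 3 to 4, against 5.69 CPM for all genes tested, and ended at 0.19 CPM. A mean level over the 3 windows is therefore lowered by a large fall itself, and the sizes by mean level that follow are partly set by the change. When all tested genes were divided into 4 equal classes by mean log2 CPM over the 3 windows, the lowest class held 383 falls with a median size of 4.47 and 140 rises with a median size of 3.30. In the next class 426 falls had a median of 3.34 and 272 rises one of 1.96. In the upper classes the medians were 1.29 for 296 falls and 1.28 for 376 rises, then 0.81 for 488 falls and 0.90 for 375 rises in the highest. With genes limited to a mean of at least 5 CPM, 1141 falls had a median size of 1.17 and 1008 rises one of 1.09; a gene that fell to near 0 can miss this limit because it fell.

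The largest falls were genes already declining before the span and uneven at its start. The 447 falls of at least 4 log2 units had median levels of 20.6 and 24.7 CPM in the libraries of day 1 and 6.24 to 8.18 CPM at day 2. At days 3 to 4 their median was 1.88 CPM in replicate 1, 6.27 in replicate 2, 16.0 in replicate 3, 4.66 in replicate 4, 2.02 in replicate 5 and 5.40 in replicate 6. Replicate 3 was thus near the level of day 1, and replicates 1 and 5 were lowest. At days 6 to 8 the libraries lay between 0.270 and 1.27 CPM with a median of 0.552, all below every library of days 3 to 4. At days 10 to 14 the 4 libraries lay between 0.0822 and 0.175 CPM, under the level of 3 counts, and the adult library, cells dissociated from a whole animal and without a replicate, stood at 2.54 CPM. Replicate 3 of days 3 to 4 was also the shallowest library of its window; the part of depth in its level was not tested. Without it, 1504 genes fell with a median size of 2.36, close to the value with it.

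The largest rises were uneven at the end of the span instead. The 84 rises of at least 4 log2 units had median levels of 0.0750 to 0.503 CPM at days 3 to 4. At days 10 to 14 the median was 10.2 CPM in replicate 2, 1.77 in replicate 3, 1.18 in replicate 4 and 8.51 in replicate 5, so replicates 2 and 5 were far above replicates 3 and 4. The libraries of days 16 to 18 lay between 3.81 and 6.49 CPM and those of days 21 to 24 at 5.58 and 12.4 CPM.

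**Figure D2:**
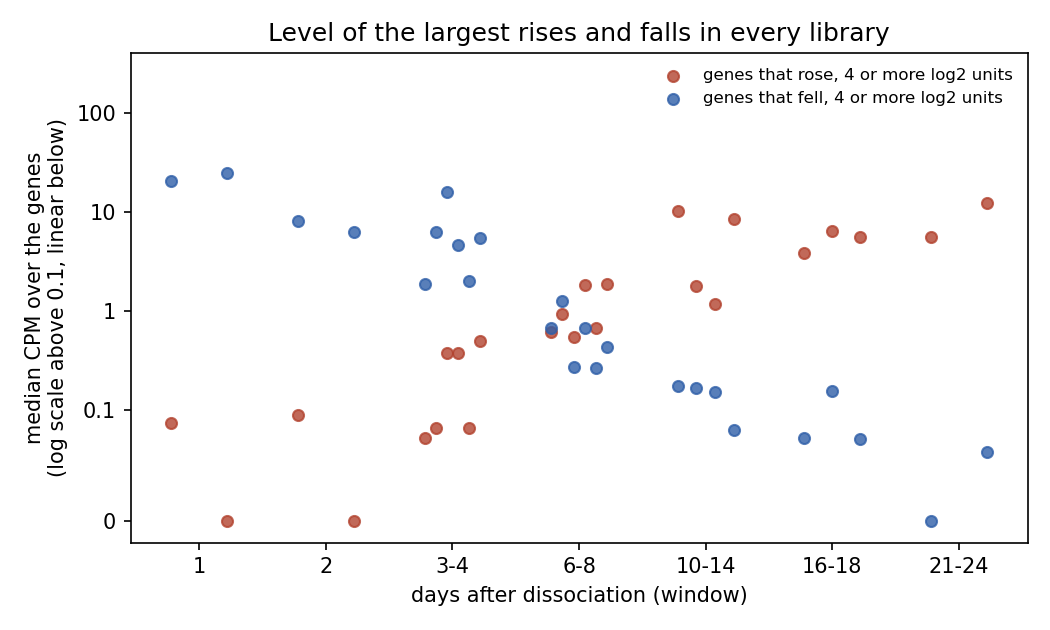
Median level in CPM (vertical axis, log scale above 0.1 and linear below) of the 84 rises and 447 falls of at least 4 log2 units in each regenerating library, by window in days after dissociation (horizontal axis); each point is 1 library. The falls spread from 1.88 to 16.0 CPM at days 3 to 4, and the rises from 1.18 to 10.2 CPM at days 10 to 14.

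How much of each change was present at days 6 to 8 was measured on log2 CPM, as the distance from the mean of days 3 to 4 divided by the distance from there to the mean of days 10 to 14. The genes were chosen from the same span, so these shares are a description and were not tested. On average over the 6 libraries of days 6 to 8, genes that fell had covered 75.9% ± 17.9 (SD, n = 6) of their fall, and genes that rose 63.2% ± 27.5 (SD, n = 6) of their rise. The middle of days 6 to 8 lies at 41.2% of the way in time between the middles of the outer windows (day 3.5, day 7 and day 12). Both shares lie above that mark, that of the falls by more than its SD over libraries and that of the rises by less.

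The libraries of days 6 to 8 differed widely in the share present. For genes that rose, the share was 77.1% in replicate 1, 22.4% in replicate 2, 93.7% in replicate 3, 87.3% in replicate 4, 45.5% in replicate 5 and 53.4% in replicate 6. For genes that fell, it was 77.7%, 44.1%, 99.4%, 75.5%, 81.1% and 77.3% in the same order. For rises, replicates 1, 3 and 4 were thus all above replicates 2, 5 and 6, and the mean of 63.2% lay between these groups. For falls the groups overlapped. Counts over all genes also differed less within the groups (chi-square per gene of a pair 23.95 to 32.31) than across them (46.15 to 85.83). At days 10 to 14, replicates 2 and 3 (30.36) and replicates 4 and 5 (51.7) likewise differed less than pairs across them (89.55 to 99.08). At days 3 to 4, replicates 3 and 4 were close (29.91) and differed from the others by 49.83 to 165.6, though pairs among the others reached 88.27. Such grouping was thus not confined to days 6 to 8. Why the libraries split was not tested. Within days 6 to 8, replicate 3 was farthest and replicate 2 least far in both directions. Replicate 2 was also the shallowest library of days 6 to 8, with 8328070 counts, and the part of depth was not tested. Falls were ahead of rises in 5 of the 6 libraries, the exception being replicate 4, and the difference averaged 12.6 percentage points ± 17.5 (SD, n = 6), less than its own spread.

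The scale matters to this contrast. On linear CPM, where the approach of a falling gene to 0 is no longer stretched out, the mean share was 91.3% for falls and 45.4% for rises.

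**Figure D3:**
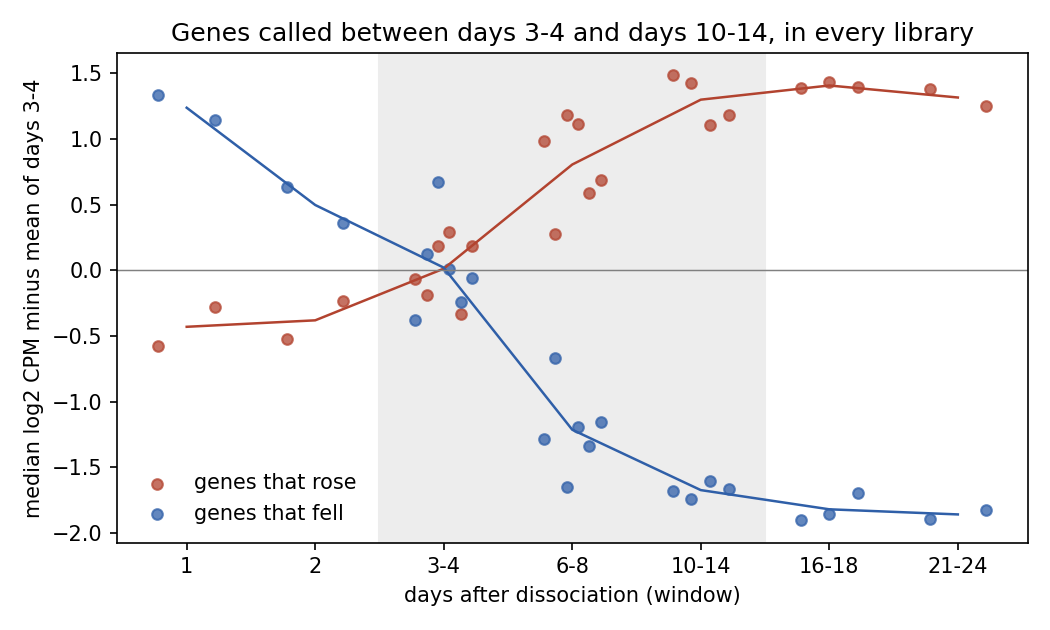
Median over the genes called of log2 CPM minus the gene's mean at days 3 to 4 (vertical axis) in each regenerating library, by window in days after dissociation (horizontal axis); points are libraries, lines join window means, and the grey band holds the 3 windows of the span. Window means of falls run from 1.24 at day 1 to -1.21 in the middle window of the band and -1.67 in its last, where the mean of rises is 1.30.

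Gene by gene, on window means, 1444 of the 1593 falls (90.6%) and 814 of the 1163 rises (70.0%) had covered at least 50% of their change by days 6 to 8. The quartiles of the share were 64.2% and 86.9% for falls, and 46.9% and 77.3% for rises. A level at days 6 to 8 beyond that of days 10 to 14 was found for 145 falls (9.10%) and 71 rises (6.10%). Late movers were few: the share lay between 0 and 25% for 21 falls and 62 rises, and 5 falls and 7 rises had first moved the other way.

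The share depended little on the size of a fall. It was 76.3% ± 23.5 for falls under 1 log2 unit, 72.3% ± 27.5 from 1 to 2, 75.5% ± 19.1 from 2 to 4 and 73.5% ± 19.7 for falls of 4 or more (SD, n = 6 libraries each). Rises gave 67.8% ± 24.4 under 1 log2 unit, 63.2% ± 29.3 from 1 to 2 and 60.8% ± 30.6 from 2 to 4. Rises of 4 or more log2 units had covered 44.4% ± 20.1 (SD, n = 6). In these 84 genes the order of the libraries also changed, as replicate 3 of days 6 to 8, the farthest in the other size classes of rises, was the least far with 26.2%, and replicate 4 was highest with 77.9%. Their median fitted step was 2.45 log2 units up to days 6 to 8 and 2.57 from there to days 10 to 14. All size classes were cut on the fitted change to days 10 to 14. Much the same change divides the share, so differences between classes may be partly set by the cut.

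**Figure D4:**
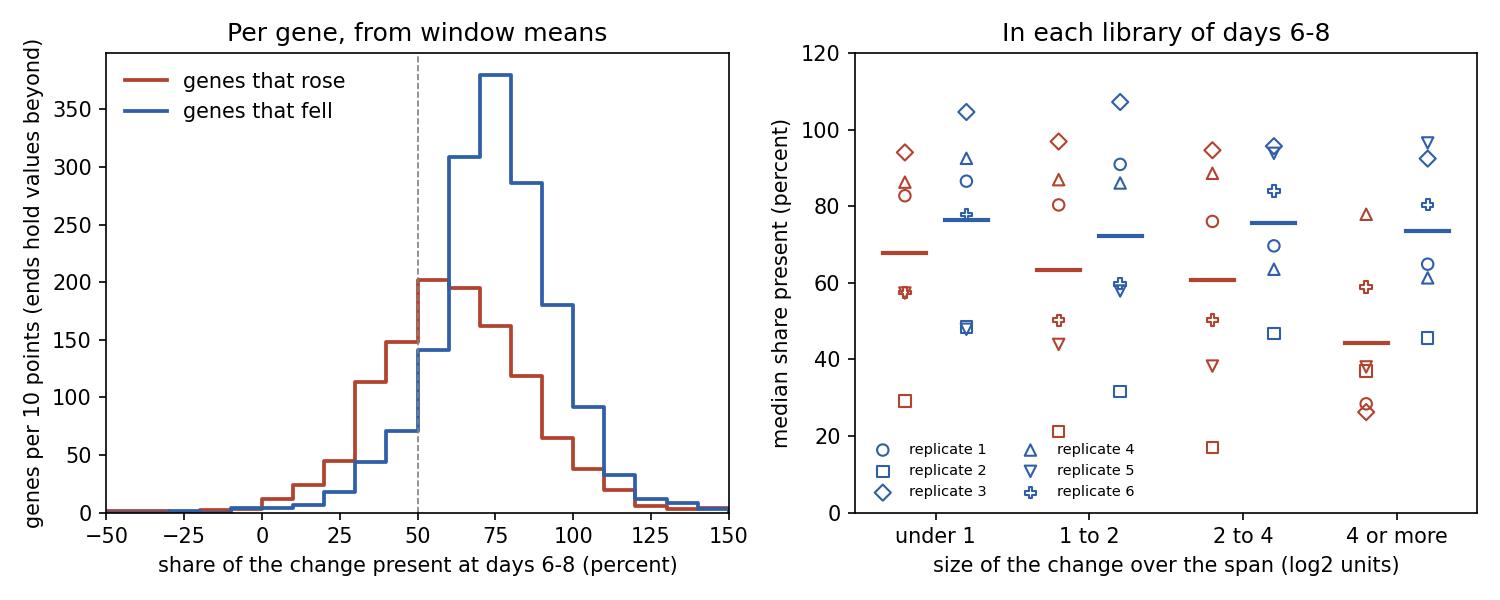
Left, number of genes (vertical axis) by the share of their change present at days 6 to 8 in percent (horizontal axis, steps of 10 points; the dashed line marks 50%). Right, the median share in percent (vertical axis) in the 6 libraries of that window, by size of the change in log2 units (horizontal axis); symbols are replicates and bars their mean. Rises of 4 or more log2 units average 44.4%, and falls 72.3% to 76.3% in every size class.

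The fitted steps tell the same genes' course on either side of days 6 to 8. Both steps share libraries with the span that chose the genes, so they are set side by side without an overlap of calls. Genes that rose had a median change of 0.89 log2 units from days 3 to 4 to days 6 to 8 and of 0.51 from there to days 10 to 14. Genes that fell had median changes of -1.54 and -0.56. The median over all genes tested was near 0 in both steps, 0.005 and -0.012. A continued change in the direction of the span after days 6 to 8 was fitted for 1098 rises (94.4%) and 1456 falls (91.4%), of which 254 and 543 moved at least 1 log2 unit in that later step. That direction is largely set by the choice of genes, since the later step ends in the libraries that chose them. Over all genes tested, the quartiles of the later step were -0.247 and 0.236.

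Whether the level at days 6 to 8 differed from the midpoint between the outer windows was tested for each gene in the same model. No gene passed (edgeR, 0 of 23995 tested, lowest adjusted p 0.526), while 1925 genes (8.02%) had an unadjusted p under 0.05 and DESeq2 called 12, 3 above and 9 below the midpoint. Among genes called over the span, an unadjusted p under 0.05 was found for 284 falls (17.8%), 275 of them past the midpoint towards days 10 to 14 and 9 short of it. For rises the numbers were 136 (11.7%), 125 past it and 11 short of it. For the later step alone, days 10 to 14 against days 6 to 8, edgeR also called 0 genes with 1411 at an unadjusted p under 0.05 (5.88%), and DESeq2 called 19, 17 of them higher. By comparison, edgeR called 1970 genes (8.21%) in the earlier step, 606 higher (2.53%) and 1364 lower (5.68%). These calls rested on single libraries of days 6 to 8: there were 1103 without replicate 3 and 1276 without replicate 1, and the higher calls went down to 248 without replicate 3, 338 without replicate 1 and 367 without replicate 4. The shares above therefore describe groups of genes, and none of them was established for an individual gene.

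A second set of genes was chosen by a contrast between libraries outside these windows. The libraries of the span took no part in that contrast, but they did enter the filter and the estimate of spread in the shared model. In edgeR, 4968 genes were higher (20.7% of those tested) and 5563 lower (23.2%) at days 16 to 24 than at days 1 and 2. The set overlaps the genes called over the span. The 4968 included 977 of the 1163 rises, and the 5563 included 1451 of the 1593 falls. Of the genes higher late, 84.4% were fitted higher at days 10 to 14 than at days 3 to 4, and of those lower late, 86.8% were fitted lower. Their changes over the span were smaller than those of the genes called there: medians on log2 CPM were 0.46 for genes higher late and -0.45 for genes lower late. By days 6 to 8 the medians were 0.37 and -0.37.

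The share present at days 6 to 8, as a ratio of medians, averaged 80.2% ± 24.3 (SD, n = 6) for genes higher late and 88.2% ± 21.9 (SD, n = 6) for genes lower late. In replicates 1 to 6 it was 84.5%, 44.3%, 116%, 93.7%, 68.4% and 74.2% for the former. For the latter it was 94.6%, 62.1%, 124.6%, 91.4%, 70.0% and 86.2%. The order of the extreme libraries was that seen above, with replicate 3 highest and replicate 2 lowest in both directions. Genes lower late were ahead in 5 of 6 libraries, by 7.94 percentage points ± 7.24 (SD, n = 6). The libraries are the same 6 as above and the gene sets overlap. Neither the order of libraries nor the difference between directions is therefore a separate observation. On linear CPM the share was 50.1% for genes higher late and 85.9% for genes lower late.

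Both groups were called on the span, so that a large change within it is fixed by their choice, and the other windows show what came before and after. The mean level had already moved in the later direction between days 1 and 2 and days 3 to 4 for 1405 falls (88.2%) and 882 rises (75.8%). The same share over all genes tested was not computed, so how far this is particular to the genes called is not shown. Counting the change from days 3 to 4 to days 10 to 14 as 100%, genes that fell stood at -67.7% at day 1 and -28.4% at day 2 (n = 2 each), hence above their level at days 3 to 4. They reached 108% ± 3.33 (SD, n = 3) at days 16 to 18 and 112% at days 21 to 24 (n = 2). Genes that rose stood at -31.8% at day 1, -28.0% at day 2, 105% ± 3.51 (SD, n = 3) at days 16 to 18 and 101% at days 21 to 24. Among the falls, 1147 of 1593 (72.0%) had their highest mean at day 1, compared with 26.6% of all genes tested, and 107 (6.72%) had it at days 3 to 4. Among the rises, 320 (27.5%) had their highest mean at days 10 to 14 and most others in the later windows, 384 (33.0%) at days 16 to 18 and 414 (35.6%) at days 21 to 24. Of all genes tested, 7.27%, 14.5% and 20.5% had it in these windows. The lowest mean of the rises lay at day 1 for 506 (43.5%), at day 2 for 484 (41.6%) and at days 3 to 4 for 157 (13.5%), where all genes tested gave 22.6%, 21.2% and 6.16%. Windows with fewer libraries have noisier means, and days 3 to 4 and days 10 to 14 took part in choosing the genes.

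The genes that fell became more even between libraries over the span. Their median level relative to days 3 to 4 had an SD over libraries of 0.37 log2 units in the first window, 0.32 in the middle window and 0.06 in the last. For genes that rose the SD was 0.25, 0.35 and 0.19. The median SD of a single falling gene was 0.84 log2 units, 0.61 and 0.41 in the same order, against 0.51, 0.46 and 0.46 for all genes tested. The prior count of 2 added before taking logs compresses differences close to 0 counts, where many falling genes ended.

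Some genes went to or came from the limit of detection. At 3 counts or fewer in every library of days 10 to 14 were 15.6% of the falls and 3.10% of all genes tested (744). For days 3 to 4 the numbers were 3.53% of the rises and 1.15% of all genes tested (277). The limit is met more easily over 4 libraries than over 6, so falls and rises are not compared by it. The 249 falls that ended at 3 counts or fewer in each library had a median of 1.31 CPM at days 3 to 4, 0.170 CPM at days 6 to 8 and 0.0401 CPM at days 10 to 14. Of these, 100 (40.2%) were already at 3 counts or fewer in all 6 libraries of days 6 to 8, and 1 was above 3 counts in all of them. The 41 rises that began at such counts had medians of 0.0390, 0.311 and 0.873 CPM in the 3 windows. In 7 of these rises (17.1%) all libraries of days 6 to 8 were still at 3 counts or fewer. Such limits cover counting error only.

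The genes called were also described by their share of the pool of counts, where the direction of change is set by their choice. Falling genes made up 13.3% ± 1.79 (SD, n = 6) of all counts at days 3 to 4. They made up 7.57% ± 2.12 (SD, n = 6) in the middle window and 5.78% ± 1.09 (SD, n = 4) in the last. They had made up 19.8% at day 1 (n = 2) and made up 6.53% in the adult library. Rising genes made up 2.33% ± 0.401 (SD, n = 6), 4.75% ± 1.39 (SD, n = 6) and 6.76% ± 0.528 (SD, n = 4) in the 3 windows, 8.73% at days 21 to 24 (n = 2) and 3.54% in the adult library. On this measure 76.1% of the loss and 54.6% of the gain were present at days 6 to 8.

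In the adult library the rising genes were mostly nearer their level at days 3 to 4, and the falling genes were about evenly divided. Its unscaled CPM was nearer to days 10 to 14 than to days 3 to 4, on log2(CPM + 0.2), for 825 of the 1593 falls (51.8%) and for 282 of the 1163 rises (24.2%). Genes that rose had a median of 5.62 CPM there, against 6.31 at days 3 to 4 and 19.2 at days 10 to 14.

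Individual IDs were named by a rule that requires no overlap between both windows, a change of at least 1 log2 unit and a mean of at least 10 CPM in the higher window, met by 314 rises and 398 falls. In each direction the largest fitted change and the largest difference of mean CPM were taken. Of the 314 eligible rises, MSTRG.15982 had the largest fold change. It had a lowest, median and highest value of 0, 0.476 and 1.05 CPM over the 6 libraries of days 3 to 4, and 0.540, 7.43 and 80.0 CPM over those of days 6 to 8. At days 10 to 14 it stood at 388, 159, 1.14 and 3.78 CPM in replicates 2 to 5. The windows at both ends did not overlap, but replicate 4 of days 10 to 14 was barely above days 3 to 4, and 4 of the 6 libraries of days 6 to 8 were above both replicates 4 and 5. Its fitted change was 8.12 log2 units (edgeR adjusted p = 0.00189; 1.13e-08 to 0.0457 over its alternatives), with 5.88 in the earlier step. At days 16 to 18 its libraries had 594, 695 and 758 CPM and at days 21 to 24 they had 474 and 465.9 CPM, whereas the adult library had 0.790 CPM.

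MSTRG.23832 had the largest gain in CPM among the eligible rises. Its lowest, median and highest values were 268, 917 and 1731 CPM at days 3 to 4 and 972, 3830 and 5496 CPM at days 6 to 8. At days 10 to 14 its 4 libraries had 6227, 5328, 2850 and 4202 CPM. All but replicate 2 of days 6 to 8 were above every library of days 3 to 4. The fitted change was 2.33 log2 units over the span (edgeR adjusted p = 0.00549; 9.56e-05 to 0.0231 over its alternatives), of which 1.995 fell in the earlier step (adjusted p = 0.0142). Later libraries stood at 1416, 2438 and 2937 CPM at days 16 to 18, and at 4907 and 1273 CPM at days 21 to 24, with 3 of these 5 below every library of days 10 to 14.

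Of the 398 eligible falls, MSTRG.11899 had the largest fold change; falls of up to 8.85 log2 units occurred among genes outside the rule. At days 3 to 4 it stood at 1.65, 17.6, 73.3, 56.6, 1.18 and 47.5 CPM in replicates 1 to 6, so replicates 1 and 5 were as low as libraries of the next window. At days 6 to 8 its lowest, median and highest values were 0.180, 0.902 and 2.55 CPM, and at days 10 to 14 its libraries had 0.699, 0.338, 0 and 0.165 CPM, at most 8 counts. The fitted change was -6.76 log2 units (edgeR adjusted p = 0.00223; 2.79e-08 to 0.0194 over its alternatives), with -4.93 in the earlier step (adjusted p = 0.00393).

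MSTRG.21480 lost the most CPM among the eligible falls. Its lowest, median and highest values were 5938, 8868 and 15120 CPM at days 3 to 4 and 608, 4168 and 9542 CPM at days 6 to 8. At days 10 to 14 its libraries had 1831, 885, 4152 and 3325 CPM. Days 6 to 8 spanned both neighbouring windows for this gene: replicates 1 and 3 were below 3 or more libraries of days 10 to 14, and replicates 2 and 5 were within days 3 to 4. The fitted change of -1.90 log2 units passed narrowly (edgeR adjusted p = 0.046) and did not pass in 11 of its 20 alternatives, where the adjusted p went up to 0.164. The change in the earlier step was -1.04 (adjusted p = 0.224). By days 21 to 24 its libraries had 759 and 386 CPM.

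**Figure D5:**
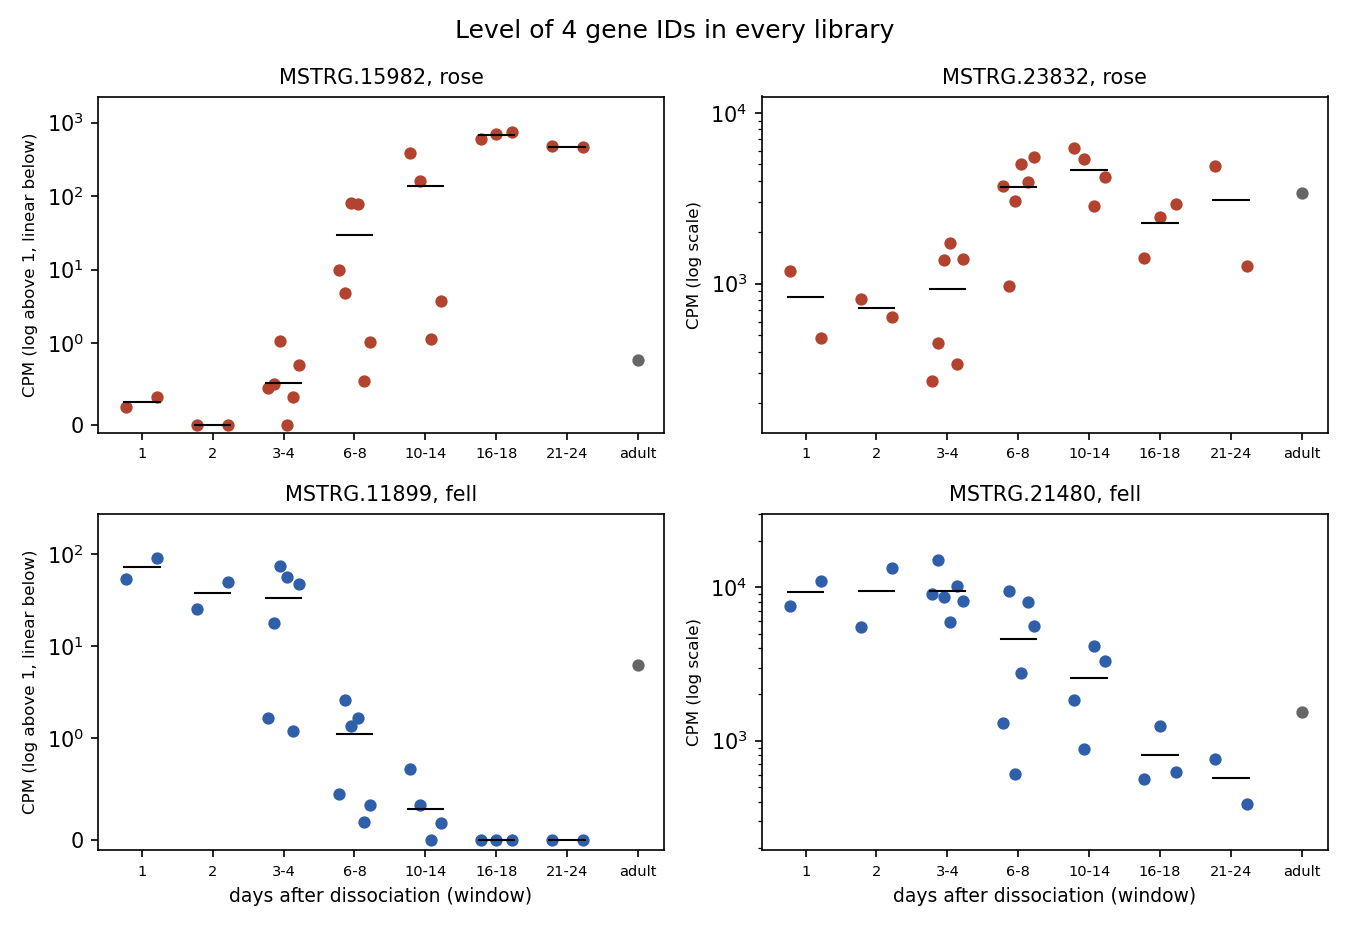
Level in CPM (vertical axes, log scale; for MSTRG.15982 and MSTRG.11899 linear below 1) of 2 IDs that rose and 2 that fell, in each library by window in days after dissociation and in the adult library (horizontal axis). Points are libraries and bars are window means; the libraries of days 6 to 8 reach from 0.540 to 80.0 CPM for MSTRG.15982 and from 608 to 9542 CPM for MSTRG.21480.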

How the data were processed

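The deposited values are whole-number read counts per gene ID, 1 table for each library, from total RNA and SENSE mRNA-Seq libraries per the labels. The submitters' processing notes name Trimmomatic 0.36, HISAT2, StringTie, featureCounts, DESeq2 and Bowtie2 without their roles; genome build, gene models and strand are not given in the sources used here. Reads of overlapping IDs or near-identical copies could not be separated.

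Counts were analysed with edgeR 4.0.16 (limma 3.58.1, R 4.3.3): filterByExpr kept 23995 IDs and left out 11312, TMM factors were 0.873 to 1.15 in the 3 windows, and glmQLFit (robust = TRUE) was fitted to the 25 regenerating libraries with the window as factor. Tests were two-sided quasi-likelihood F tests, adjusted over all genes at 0.05; they give no standard error of a fold change. Log2 CPM used a prior count of 2 (NumPy 2.4.6, pandas 2.3.3). Members, lists and tests were chosen with earlier results of these data known. Named IDs followed the rule stated with them, 2 in each direction because the files pair no ID with a name. The procedure was also run on simulated counts with changes of a fixed size. That simulation held no changes of other sizes and no libraries that fall into groups, so it does not cover these features of the data. No library was a copy of another: counts of the 36 same-window pairs differed beyond sampling (lowest chi-square per gene 22.8). No batch is named in the labels; each sample set holds at most 1 library per window, and 2 of 14 index sequences are used by 2 of the 16 libraries each. Alternatives included DESeq2 1.42.0, other scalings and filters, fewer libraries, a replicate block and leaving out each library.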

Additional observations from a re-analysis of the deposited data

Results flagged for a closer look

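Among 31 sets of values compared by Dixon's test within the windows of days 3 to 4, 6 to 8 and 10 to 14, 2 held a library apart from the others, where chance gives about 1 in 20. Both belong to replicate 3 of days 3 to 4. Its total was 7551436 counts, against 10794560 to 12698811 in the other libraries of the window. It had 25601 IDs with a count, against 26957 to 27284. The levels of the genes that rose or fell, the shares present at days 6 to 8 and the 4 named IDs had no library set apart by this test. It looks for 1 library apart from the rest and can miss libraries that fall into groups, so these sets are not shown to be even.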

How the results depend on the processing

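The number of genes called over the span stayed within 1.5 times of 2756 in 19 of 21 alternatives; it was 1572 when only the libraries of both windows were fitted, and 1766 to 2963 when each library was left out in turn, lowest without replicate 3 of days 10 to 14. The replicate block gave 2148 calls by title and 1942 by sample set, and 1500 and 1668 for the earlier step. The numbers were not taken as pairs, because 0 of 4 same-numbered pairs of days 3 to 4 and days 10 to 14 had a correlation of deviations over 0.1 under either numbering, and in 0 of 4 did the library of days 3 to 4 correlate best with its own number. For days 3 to 4 and days 6 to 8, 4 of 6 pairs were over 0.1 (median 0.172, against -0.102 for different numbers) and 2 of 6 libraries correlated best with their own number, which is a hint from the data short of every pair. DESeq2 called 3476 genes, 2732 of them among the 2756. For the earlier step, leaving out a library gave 1103 to 2458 calls, the lowest being 1276 and 1103 on dropping replicates 1 and 3 of days 6 to 8. For the later step edgeR called 0 genes throughout and DESeq2 19; against the midpoint edgeR called 0, also for a level linear in days, and DESeq2 12. The median rise was 1.09 among genes averaging 5 CPM or more and 1.43 to 1.68 when libraries were left out. The median fall was 2.13 under upper-quartile scaling, 1.90 in DESeq2, 1.17 among genes averaging 5 CPM or more, 1.91 at the bound, and 2.36 to 3.33 when libraries were left out, above the median rise in each of these fits. Shares present at days 6 to 8 ranged over 56.3% to 72.3% for rises and 71.0% to 82.5% for falls when libraries were left out, and over 72.3% to 87.4% and 80.7% to 93.3% in the genes chosen from other windows; on linear CPM the share of genes higher late was 50.1%. The causes of these movements were not tested. Depth limits the sizes of falls, as 3 counts correspond to 0.225 to 0.451 CPM.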
